A study of Homo sapiens with 9 samples.

Results

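Knockdown of TWIST1 in WM793TR melanoma cells was compared with a control shRNA on 6 of the 9 expression arrays of the series, taken by their labels: 3 arrays of cells with the TWIST1 shRNA (shTWIST1) and 3 arrays labelled TWIST1 basal, read as the control shRNA (shControl). WM793TR is a human melanoma cell line, from the vertical growth phase of the disease and with mutant BRAF per the study's text, in which doxycycline switches on an introduced construct. Cells of both groups had been given 100 ng/mL doxycycline for 96 h, so that the groups share the drug and the induction. On the labels they differ in the shRNA. The other 3 arrays are titled TWIST1 overexpression. They are of cells with the TWIST1 shRNA and a TWIST1 cDNA driven by the CMV promoter (shTWIST1 + TWIST1, the rescue cells), under the same doxycycline. These arrays are given here beside the knockdown only. Each group is 1 cell line with 1 shRNA on the labels. From shTWIST1 and shControl alone, effects of TWIST1, of the shRNA on other transcripts and of another difference between the cell populations cannot be told apart. Some Y chromosome genes differed between the groups, as given below.

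TWIST1 is a basic helix-loop-helix transcription factor. It pairs with E proteins and binds E-boxes, short DNA motifs written CANNTG. In the embryo it acts in the mesoderm and the neural crest, from which melanocytes come, and in carcinoma and melanoma it is known as a driver of epithelial-mesenchymal transition (EMT), migration and invasion.

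Values are log2 expression made by the authors with RMA, so a difference of 1 is a 2-fold change in signal. Each gene has its own probes, so levels of different genes, as given for markers and bands of signal, compare only roughly. All 19903 named genes outside the Y chromosome are described here. The medians of the 6 arrays lay between 4.72 and 4.77, correlations between any 2 of the 6 lay between 0.986 and 0.994, and the array that deviated most from its group mean was shTWIST1 replicate 2. Of 31 genes tested on the Y chromosome, 7 passed the test, each lower in shTWIST1, and they are left out of every count and name below. Their part in the other differences was not tested. Of the melanocyte lineage markers, SOX10 and S100B had high levels (8.63 and 9.50 on average over the 9 arrays) and MITF a middle one (5.37), while PMEL, TYRP1, MLANA and TYR lay between 2.48 and 2.71, below the level of 3.22 under which 30% of all genes fall. Of the leukocyte, endothelial and keratinocyte markers, CD68 had the highest level (7.59 on average over the 9 arrays) and KRT14 and CLDN5 the next (5.07 and 4.78), while the median level of each of these lists lay between 2.92 and 3.20, and no marker list held a gene that passed the test.

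The TWIST1 signal was lower in each shTWIST1 array than in any control. RNA was taken from whole cultures, in which less RNA per cell and fewer cells with the transcript cannot be told apart. In shControl replicates 1, 2 and 3 the TWIST1 level was 6.77, 7.10 and 7.15, and in shTWIST1 replicates 1, 2 and 3 it was 6.18, 6.22 and 6.28. The groups did not overlap, and the shTWIST1 arrays lay close together while shControl replicate 1 lay below the other 2. The mean log2 difference was -0.78 (standard error 0.16), which leaves 58.3% of the control signal (95% confidence interval 44.9 to 75.6%). Array by array, with replicates 1, 2 and 3 of the 2 groups set against each other as pairs, 66.5%, 54.5% and 54.6% remained. Over all genes the difference did not pass the threshold of an adjusted p of 0.05 (limma, Benjamini-Hochberg, adjusted p = 0.293, and 0.240 with the replicate number as a block) and TWIST1 stood at rank 78 by p among the genes described here. An exact two-sided permutation test of the 6 TWIST1 values gave p = 0.1, the smallest that 3 arrays against 3 can give. In the rescue cells the TWIST1 level was 8.75, 8.90 and 8.27. It differed from shControl by 1.63 (limma, adjusted p = 0.00199), so these cells were above the control level of TWIST1 and not back at it.

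Few genes passed the test after knockdown. SPP1, which encodes osteopontin, a secreted phosphoprotein of bone and tumor matrix that binds integrins, rose 13.2-fold. TNFAIP6, which encodes a secreted protein that binds hyaluronan and is induced by TNF and interleukin 1, fell 4.93-fold. STX10, a syntaxin of the trans-Golgi network and endosomes, UHMK1, a serine/threonine kinase, ATP6V0B, a subunit of the membrane sector of the proton pump that acidifies lysosomes (the V-ATPase), and COX16, an assembly factor of cytochrome c oxidase, fell by 1.69- to 2.43-fold. In all, 6 of 19903 genes passed (limma, adjusted p under 0.05), or 0.0301% of those tested, with 1 higher (0.00502%) and 5 lower (0.0251%). At an unadjusted p under 0.05 there were 1310 genes (6.58%), of which 531 were higher (2.67%) and 779 lower (3.91%). The methods' t-test, with unequal variance, gave 794 genes at the same unadjusted threshold (3.99%), 309 higher (1.55%) and 485 lower (2.44%), and 0 after adjustment. The median log2 difference of all genes was 0.02.

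TWIST1 acts through E-boxes, so the windows of 250 bases upstream of the start of the 3 genes whose calls were the most stable are shown, with each CANNTG, searched on both strands (the motif reads the same on either), in capitals. The sequences are those of RefSeq for GRCh38.p14, written 5′ to 3′ on the strand of the gene and ending at the base before its start.
SPP1, + strand, chr4:87975464-87975713: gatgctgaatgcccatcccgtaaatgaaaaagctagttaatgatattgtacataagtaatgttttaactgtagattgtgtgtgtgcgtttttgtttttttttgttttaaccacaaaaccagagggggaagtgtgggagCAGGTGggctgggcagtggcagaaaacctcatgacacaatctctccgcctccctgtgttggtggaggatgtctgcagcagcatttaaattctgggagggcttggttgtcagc
TNFAIP6, + strand, chr2:151357342-151357591: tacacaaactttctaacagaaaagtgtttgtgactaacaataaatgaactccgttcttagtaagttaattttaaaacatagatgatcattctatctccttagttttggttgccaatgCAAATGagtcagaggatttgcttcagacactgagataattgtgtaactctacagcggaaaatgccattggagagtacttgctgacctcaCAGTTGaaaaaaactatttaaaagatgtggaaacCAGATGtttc
STX10, - strand, chr19:13150376-13150625: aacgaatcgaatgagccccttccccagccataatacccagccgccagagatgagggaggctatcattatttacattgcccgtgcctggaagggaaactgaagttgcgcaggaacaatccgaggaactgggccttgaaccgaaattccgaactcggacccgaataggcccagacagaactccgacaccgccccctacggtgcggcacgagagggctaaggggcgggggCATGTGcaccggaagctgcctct
The SPP1 window holds 1 E-box, CAGGTG, whose first base lies 112 bases before the start. The TNFAIP6 window holds 3. The farthest, CAAATG, begins 133 bases before the start. The middle one, CAGTTG, begins at 44 bases and the nearest, CAGATG, at 10 bases. The STX10 window holds 1, CATGTG, which begins at 23 bases. The windows of ATP6V0B, COX16 and UHMK1 hold 3, 1 and 0. The UHMK1 window (chr1:162497555-162497804) lies inside the span given for the gene (chr1:162497174-162529631). Its count of 0 is therefore not of the bases upstream of that span. A CANNTG is present in 57.3% of the 14486 upstream windows of the tested genes, CATCTG or its reverse complement CAGATG in 9.60%, and CACCTG or its reverse complement CAGGTG in 16.8%. These matches are a description of the letters only, and no binding was measured.

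SPP1 (chr4:87975714-87983411) was at 5.04, 4.68 and 4.85 in shControl replicates 1 to 3 and at 8.98, 8.72 and 8.06 in shTWIST1 replicates 1 to 3. Every knockdown array lay more than 3 log2 units above every control array. The log2 difference was 3.73 (standard error 0.22, limma, adjusted p = 0.000272). In the rescue cells the SPP1 level was 3.10, 3.17 and 2.90, below both other groups.

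TNFAIP6 (chr2:151357592-151381340) had control levels of 6.81, 7.04 and 6.74 and knockdown levels of 4.32, 4.64 and 4.72. The groups stood apart by about 2 log2 units, with a difference of -2.30 (standard error 0.13, limma, adjusted p = 0.000252). The rescue arrays were at 7.49, 7.75 and 7.68, above the controls. For SPP1 and TNFAIP6 the rescue cells differed from shTWIST1 in the opposite direction, by -5.53 and 3.08 (limma, adjusted p = 1.27e-05 and 1.44e-05), against a background of 3.37% of genes called in that comparison (1.6% higher and 1.77% lower), which shares the shTWIST1 arrays with the knockdown comparison.

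STX10 (chr19:13144058-13150375) changed less but with little spread. Its control levels were 6.67, 6.54 and 6.60 and its knockdown levels 5.87, 5.89 and 5.79. The difference was -0.75 (standard error 0.07, limma, adjusted p = 0.00482, and 0.0343 with the block).

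UHMK1 was at 9.82, 9.59 and 9.65 in the controls and at 8.77, 8.36 and 8.29 after knockdown, a difference of -1.21 (standard error 0.14, limma, adjusted p = 0.0346, and 0.0602 with the block). ATP6V0B was at 9.27, 8.96 and 8.81 and then at 8.087, 8.004 and 8.063, so that its knockdown arrays agreed closely and its control arrays did not. The ATP6V0B difference was -0.96 (standard error 0.12, limma, adjusted p = 0.0419, and 0.0420 with the block). COX16 was at 9.29, 9.18 and 8.81 and then at 7.84, 7.97 and 7.61, a difference of -1.28 (standard error 0.16, limma, adjusted p = 0.0451, and 0.0758 with the block). The call of these 3 genes was less stable than that of SPP1, TNFAIP6 and STX10, since with the Y chromosome genes taken out before the fit only the latter 3 passed and UHMK1, ATP6V0B and COX16 had limma adjusted p-values of 0.0950, 0.0977 and 0.0977.

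For the other 4 called genes the rescue cells lay nearer to the knockdown than to the controls. The mean rescue levels were 6.04 for STX10, 8.96 for UHMK1, 8.25 for ATP6V0B and 8.33 for COX16, each between the knockdown and the control mean. Against shTWIST1 the rescue cells did not pass for any of the 4 (limma, adjusted p from 0.114 to 0.423), with differences from 0.19 to 0.52. Against shControl all 4 were lower in the rescue cells (limma, adjusted p from 0.0041 to 0.0453), by 0.56 to 0.77 on the log2 scale, where 2.59% of all genes were called (1.05% higher and 1.55% lower). SPP1 and TNFAIP6 were the only 2 of the 6 called genes that passed between the rescue and the knockdown cells, and both comparisons share arrays with the one that chose them.

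**Figure D1:**
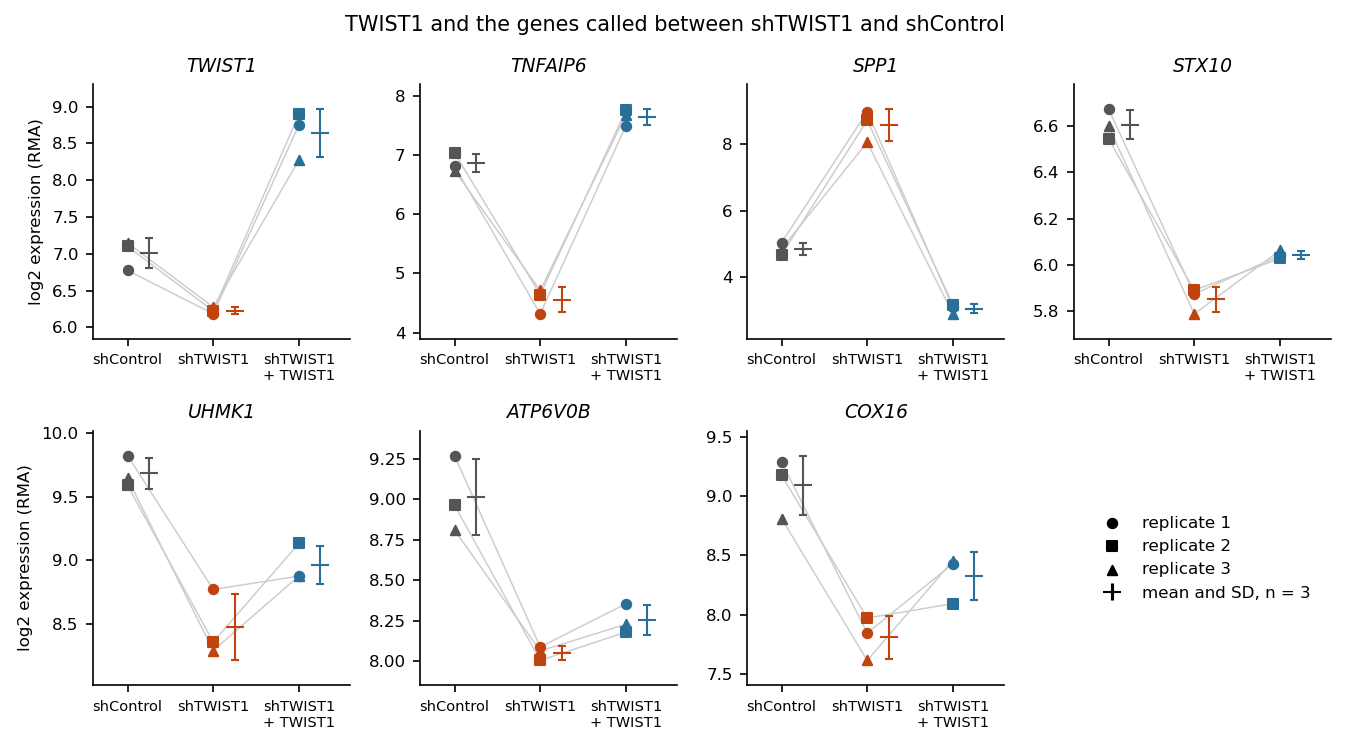
Log2 expression (RMA) of TWIST1 and the 6 genes called between shTWIST1 and shControl, with 1 point per array, the replicate number as the symbol, grey lines joining arrays of the same number, and bars for the mean and SD (n = 3). SPP1 and TNFAIP6 stand apart by over 2 log2 units between the first 2 groups and cross over in the rescue cells, whereas STX10, UHMK1, ATP6V0B and COX16 stay below the controls there; the vertical axes differ between panels and do not start at 0.

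The fit with a block for replicate number also called 6 genes (0.0301%, with 0.00502% higher and 0.0251% lower), and 4 of them were the same, SPP1, TNFAIP6, STX10 and ATP6V0B. The 2 that passed only with the block were ELOF1, a transcription elongation factor, and EIF1AXP1, a pseudogene copy of the translation initiation factor gene EIF1AX. ELOF1 was at 7.28, 6.95 and 7.39 in the controls and at 6.29, 5.93 and 6.56 after knockdown, a difference of -0.95 (limma, adjusted p = 0.0132 with the block and 0.301 without). It was lower by nearly the same amount in every pair. EIF1AXP1 differed by -1.25 (limma, adjusted p = 0.0326 with the block and 0.409 without). Its probes may also take up EIF1AX and a near-identical copy on the Y chromosome, and EIF1AX itself differed by -0.83 without passing (limma, adjusted p = 0.348), so EIF1AXP1 is uncertain as a gene of its own.

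Below the threshold, 5 genes had an adjusted p between 0.05 and 0.1 (limma), all lower in shTWIST1 and named after their values were seen. WASF3, a WAVE-family regulator of branched actin, differed by -1.06 (adjusted p = 0.0764), PXYLP1, a phosphatase of proteoglycan linker synthesis, by -0.75 (adjusted p = 0.0615), and STX2, a plasma membrane syntaxin, by -0.68 (adjusted p = 0.0602). POLR3G, a subunit of RNA polymerase III, differed by -0.64 (adjusted p = 0.0528), and USP16, a histone H2A deubiquitinase, by -0.59 (adjusted p = 0.0758). In the rescue cells WASF3 was at a mean of 6.02, above its control mean of 5.29, and POLR3G was at 7.78, below its knockdown mean of 8.13.

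**Figure D2:**
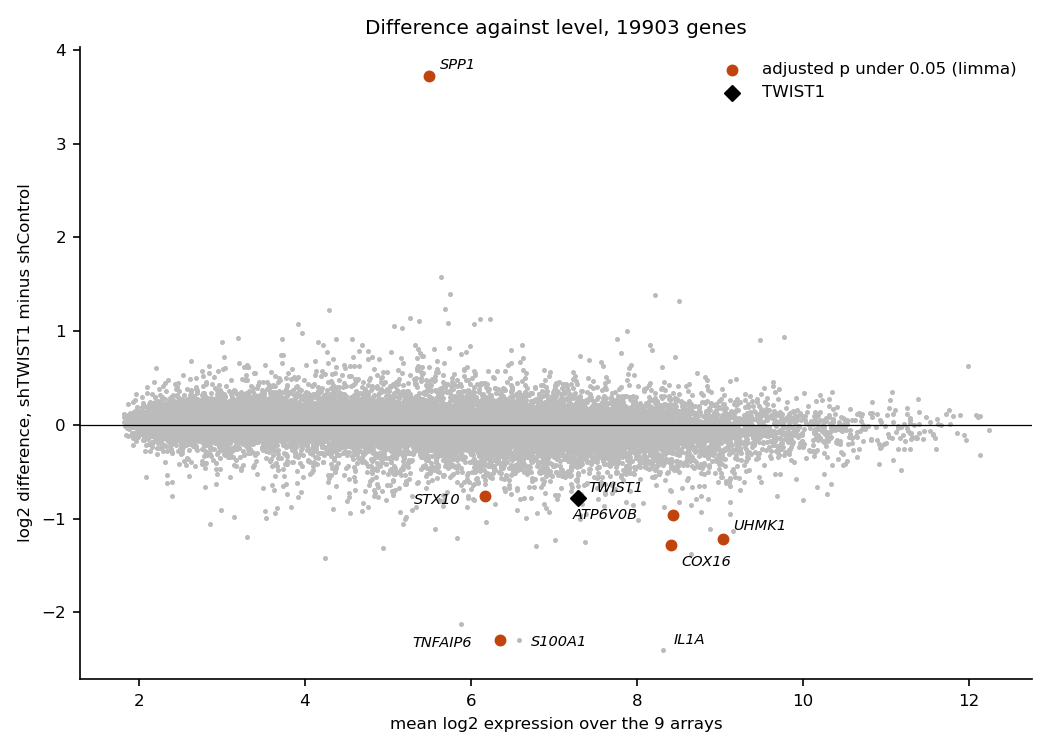
Log2 difference between shTWIST1 and shControl against the mean log2 expression over the 9 arrays, 1 point per gene, with the 6 called genes in color and TWIST1 as a diamond. Most genes lie close to 0 and SPP1 at 3.73 has no neighbor, while TNFAIP6 at -2.30 lies beside S100A1 and IL1A, which were not called.

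Large differences were more frequent than calls. A log2 difference of at least 1 in size was seen in 40 genes, 17 higher and 23 lower, and in 24 of these, 7 higher and 17 lower, the 2 groups did not overlap. Over all genes, 1127 (5.66%) were higher and 1220 (6.13%) lower without overlap between the groups.

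Of the 13939 genes with a mean level of at least 3.22, 5.27% were higher and 8.11% lower without overlap. Among the genes without overlap at that level that were not called, the lowest difference was that of IL1A, which encodes the cytokine interleukin 1 alpha. IL1A was at 9.07, 8.95 and 8.69 in the controls and at 6.13, 6.72 and 6.63 after knockdown. The difference was -2.41 (standard error 0.39, limma, adjusted p = 0.148), and in a fit of the 6 arrays alone IL1A passed without the block (limma, adjusted p = 0.0298) but not with it (limma, adjusted p = 0.104). Its rescue arrays spread from 8.63 to 10.38, and they are part of the error in the fit of 9 arrays.

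S100A1, which encodes a calcium-binding protein, was at 8.02, 8.24 and 7.94 and then at 5.81, 5.30 and 6.20, a difference of -2.30 (limma, adjusted p = 0.107). Its rescue mean of 5.90 was close to the knockdown mean. S100A13, named after its values were seen, differed by -0.79 (limma, adjusted p = 0.181). Its span (chr1:153618799-153634361) holds that of S100A1 (chr1:153628434-153632039), and whether the signals share transcripts was not tested. The 19 S100 genes, a family added after the values were seen, had a median difference of -0.05. C3, the central complement component, was at 6.93, 6.37 and 5.74 and then at 3.82, 4.75 and 4.10, a difference of -2.12 with a wide spread (standard error 0.62, limma, adjusted p = 0.547). Its rescue mean was 7.08.

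AFAP1L2, an adaptor of Src signaling, FCRLA, an Fc receptor-like protein known from B cells and melanocytes, and ROPN1L, a ropporin-like protein known from sperm, had levels that also differed between replicate numbers within each group. AFAP1L2 was at 6.17, 5.26 and 6.18 and then at 4.87, 3.85 and 4.94, so that replicate 2 was the lowest in both groups. It differed by -1.32 (limma, adjusted p = 0.409), and passed in the fit of the 6 arrays with the block (limma, adjusted p = 0.0441). ROPN1L was at 7.79, 6.61 and 7.62 and then at 6.45, 5.40 and 6.54, again with replicate 2 the lowest in both groups, and differed by -1.21 (limma, adjusted p = 0.575). FCRLA was highest in replicate 2 of both groups, at 8.54 and 7.28, and differed by -1.29 (limma, adjusted p = 0.382). FAM111B, RPL12 and H3C1 differed by -1.19, -1.13 and -1.11, and of these RPL12, a ribosomal protein, and H3C1, a histone H3, have near-identical copies in the genome.

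Higher after knockdown without passing were CH25H, which makes 25-hydroxycholesterol, by 1.24 (limma, adjusted p = 0.575), ABCC2, an organic anion export pump, by 1.22 (limma, adjusted p = 0.549), and ASNS, asparagine synthetase, by 1.005 (limma, adjusted p = 0.823). ADGRL3, an adhesion G protein-coupled receptor, and DNER, a neuronal Notch ligand, differed by 0.99 and 0.92. CH25H was at 5.20, 5.08 and 4.75 in the controls and at 6.49, 6.80 and 5.46 after knockdown, with shTWIST1 replicate 3 the nearest to the controls. ABCC2, ADGRL3 and CH25H all had their highest knockdown value in replicate 2 and their lowest in replicate 3. The remaining members of this group were small RNAs and an immunoglobulin segment, SNORD102 (1.11), SNORA65 (1.09), MIR1247 (1.04), SNORA24 (0.93) and IGHV3-47 (0.92).

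Some of the largest mean differences came with overlap between the groups and were named after their values were seen. DKK1, a secreted Wnt inhibitor, differed by 1.58 (standard error 0.99), with controls at 7.11, 4.04 and 6.50 and knockdown arrays at 8.12, 5.98 and 8.28. It was higher in each pair, while replicate 2 was the lowest of both groups. SLC7A11, the cystine transporter, was at 6.71, 8.49 and 7.15 and then at 8.73, 9.33 and 8.46, also higher in each pair. The cancer-testis antigen gene XAGE2 was at 5.63, 4.49 and 5.70 and then at 7.11, 5.62 and 7.28. In DDIT3, a transcription factor of the stress response, 1 array set the mean difference of 1.13, since shTWIST1 replicate 2 was at 9.01 and the other 2 knockdown arrays at 5.93 and 5.34.

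**Figure D3:**
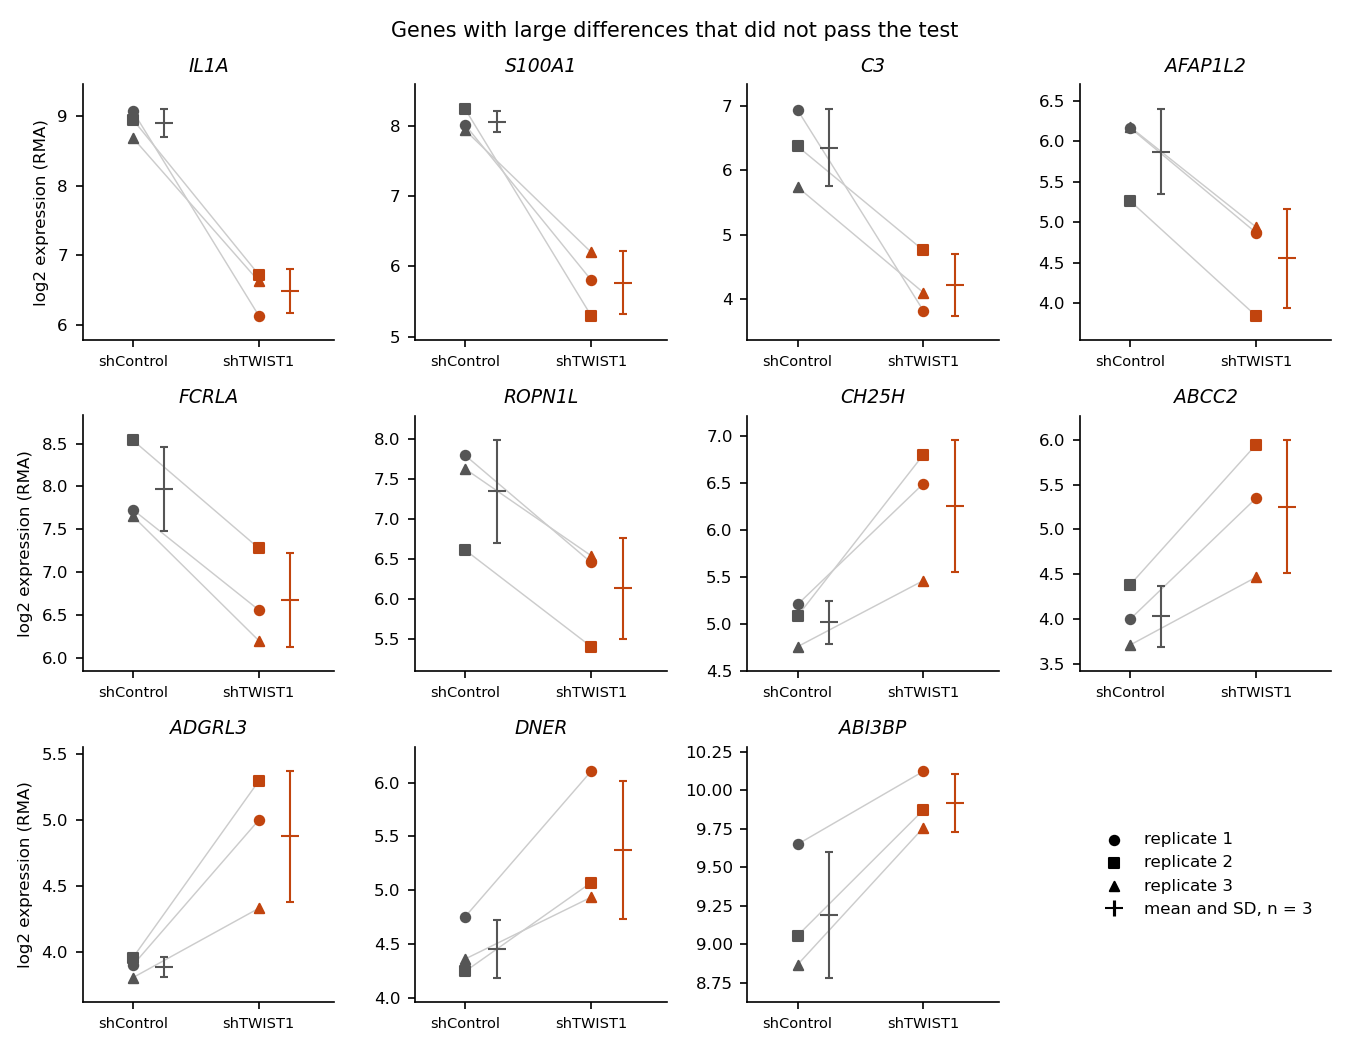
Log2 expression (RMA) in shControl and shTWIST1 of 11 genes with large differences that did not pass, with 1 point per array, the replicate number as the symbol, grey lines joining arrays of the same number, and bars for the mean and SD (n = 3). In AFAP1L2 and ROPN1L replicate 2 is the lowest of both groups and the 3 lines run nearly in parallel; the vertical axes differ between panels and do not start at 0.

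The CADM family, to which the study turned, showed small differences between shTWIST1 and shControl. CADM1, a cell adhesion molecule of the immunoglobulin superfamily, was at 9.20, 8.82 and 8.93 in the controls and at 9.26, 8.90 and 9.01 after knockdown. It was higher in each of the 3 pairs but the groups overlapped, and the difference was 0.08 (95% confidence interval -0.32 to 0.48, limma, adjusted p = 0.966). In the rescue cells its mean was 8.10, which differed from shTWIST1 by -0.96 and from shControl by -0.88 (limma, adjusted p = 0.0240 and 0.0393). CADM3 and CADM4 differed by -0.04 (95% confidence interval -0.52 to 0.44) and 0.06 (-0.48 to 0.60), with pairs in both directions. From shTWIST1 to the rescue cells they differed by -1.17 and -1.10 (limma, adjusted p = 0.0233 and 0.0455), where 1.77% of all genes were called lower. The study's evidence on CADM1 also took in the rescue cells, TWIST1 siRNAs, qRT-PCR and protein. It further held induced TWIST1 expression, a promoter reporter and chromatin immunoprecipitation of TWIST1 at the CADM1 promoter. For the arrays the study reported an inverse correlation of CADM1 with TWIST1, which is another measure than the knockdown difference. MMP1, a secreted collagenase, had control levels of 10.51, 10.16 and 10.27 and knockdown levels of 10.08, 9.62 and 9.97, a difference of -0.42 without overlap that did not pass (limma, adjusted p = 0.589).

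Of genes known as repressed by TWIST1 in other cells, none passed. CDH1, which encodes the epithelial cadherin, lay near the lowest signals of the arrays in both groups, from 2.39 to 2.48, and differed by 0.03. ESR1, the estrogen receptor gene, differed by -0.12 and was also at low levels. SOX9, a neural crest transcription factor gene, differed by 0.06 (95% confidence interval -0.13 to 0.24).

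In the list of TWIST1 partners and other basic helix-loop-helix and ID factors, 19 of 19 genes were measured and none was called. The E protein genes TCF4 and TCF12 differed by 0.27 and 0.10, with pairs in both directions. ID1 and ID2, which encode inhibitors that bind E proteins, differed by -0.50 and -0.54 and were lower in all 3 pairs with overlap between the groups. ID1 was at 4.89, 5.03 and 5.06 in the controls and at 4.03, 4.42 and 5.04 after knockdown, so that the third knockdown array was at the control level. HES1, a target of Notch signaling, differed by -0.31 and BHLHE41, a repressor of the circadian clock, by 0.59, both without overlap. The median over the list was -0.08, which became 0.03 to 0.05 without shControl replicate 2 or any 1 of the shTWIST1 arrays.

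No EMT transcription factor was called, where 0.0301% of all genes were. Of 17 measured none had groups without overlap, where 5.66% of all genes were higher and 6.13% lower without overlap. KLF4 had the largest difference, 0.53, from 4.65, 4.92 and 4.82 to 5.26, 5.81 and 4.91. Among EMT markers, CDH2, the neural cadherin, was at 8.84, 8.80 and 8.99 and then at 9.31, 9.20 and 9.24, a difference of 0.37 (limma, adjusted p = 0.321), and VIM, the intermediate filament gene vimentin, differed by 0.18. In this list 6 of 22 genes (27.3%, against 5.66% of all genes) were higher without overlap and 1 lower (4.55%, against 6.13%). The 6 were the mesenchymal markers CDH2, VIM and TAGLN and the epithelial markers CLDN1, KRT19 and TJP1. Both sides of the list were thus among them, in part through weak signals. The mean levels of CLDN1 and TAGLN over all arrays, 2.50 and 2.88, lay below the level of 3.22 given above. That of KRT19, 3.66, lay not far above it.

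YAP and TEAD targets leaned higher, without a call. In this list, a readout of Hippo signaling, 26 of 26 genes were measured, and 14 of 26 (53.8%, against 16.7% of all genes) were higher in all 3 pairs, against 1 lower (3.85%, against 15.1%). Their median difference was 0.16, with 0.14, 0.18 and 0.23 in pairs 1, 2 and 3, beside 0.02 for all genes. TGFB2, a transforming growth factor, was at 6.33, 6.11 and 5.73 and then at 6.70, 7.30 and 6.68, a difference of 0.84 (limma, adjusted p = 0.688). CCN1, a matricellular protein, and NUAK2, a kinase of the AMPK family, differed by 0.80 and 0.66. In the rescue cells 5 of the 26 were called lower than in shTWIST1, against 1.77% of all genes. That comparison shares the shTWIST1 arrays with the knockdown comparison and is not independent of it.

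Matrix glycoproteins and proteoglycans had a median of 0.10, and 10 of 45 (22.2%, against 5.66% of all genes) were higher without overlap, and 1 (2.22%, against 6.13%) lower. ABI3BP was at 9.65, 9.06 and 8.87 and then at 10.12, 9.87 and 9.76, a difference of 0.73 (limma, adjusted p = 0.444), while its rescue mean was 6.29. EFEMP1, a fibulin, differed by 0.49 (limma, adjusted p = 0.354). Among genes of the invasive, dedifferentiated state of melanoma, a list which shares CCN1 and CDH2 with other lists, the median of 32 genes was 0.20 and became 0.05 without shTWIST1 replicate 3. Within it, PDGFRB, a growth factor receptor, differed by -0.54 without overlap, and CXCL8, a chemokine, differed by -0.74, with overlap.

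In the actomyosin list the tropomyosin genes TPM2 and TPM4 differed by 0.62 and 0.43 and the cofilin gene CFL1 by -0.29, each without overlap, and the list's median was 0.09. The medians of collagens (0.04), cell-cell adhesion (0.06), TGF-beta and BMP signaling (0.05), Wnt signaling (0.08), and integrins and focal adhesion (0.02) lay near that of all genes. The counts of the TGF-beta and BMP list and of the Wnt list leaned higher, without a call. Without overlap, 16.7% of the TGF-beta and BMP list were higher and 2.78% lower, against 5.66% and 6.13% of all genes. Of the Wnt list, 12.5% were higher and 0 lower without overlap. The receptor-activated SMAD genes of the BMP pathway differed in opposite directions without overlap, SMAD1 by 0.41 and SMAD5 by -0.47.

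Genes that make, bind or degrade hyaluronan included the called gene TNFAIP6 and others that were lower. HAS2, a hyaluronan synthase, was at 3.78, 4.70 and 4.77 and then at 3.48, 3.15 and 3.60, a difference of -1.01 (limma, adjusted p = 0.507), and its rescue mean was 7.80. CEMIP, which is needed for the breakdown of hyaluronan, was at 7.49, 8.18 and 7.69 and then at 6.93, 6.89 and 6.73, a difference of -0.94 (limma, adjusted p = 0.301). HAS3 and VCAN, a proteoglycan that binds hyaluronan, were higher by 0.22 and 0.42, and the median of the 28 measured genes was 0.0019. Of the bone matrix list, SPP1 alone was called of 22 measured, and TNFRSF11B, the decoy receptor osteoprotegerin, differed by 0.46.

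In the list of metalloproteases and the plasminogen system, 6 of 35 genes (17.1%, against 6.13% of all genes) were lower without overlap. RECK, a membrane-anchored inhibitor of metalloproteases, was at 6.09, 6.26 and 5.87 and then at 5.14, 5.61 and 5.23, a difference of -0.75 (limma, adjusted p = 0.225). ADAM19 and ADAMTS9 differed by -0.60 and -0.57. The list's median was 0.0026.

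The TNF response list had 1 called gene of 38, TNFAIP6, and held IL1A. IER3, an immediate early gene, was at 10.34, 10.79 and 10.65 and then at 9.74, 10.20 and 9.93, a difference of -0.64 (limma, adjusted p = 0.481). The list's median was -0.02, and within the pairs -0.23, 0.02 and -0.0015. Of the interferon response genes, 6 of 43 (14.0%, against 6.13% of all genes) were lower without overlap and 0 higher (against 5.66%), with ISG15, a ubiquitin-like modifier, at -0.88, IFI6 at -0.79 and SAMD9 at -0.41, none of them called. The pair medians of that list were -0.18, -0.16 and 0.00, and the list's median of -0.07 became -0.23 without shControl replicate 3, where ISG15 passed.

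MHC class II genes were lower in all 3 pairs in 9 of 17 (52.9%, against 15.1% of all genes) and higher in 0. Without overlap only 1 of the 17 was lower (5.88%, near the 6.13% of all genes) and 0 higher. HLA-DMA and HLA-DMB, which load peptides on class II molecules, differed by -0.46 and -0.45 with overlap, and CTSS, a protease that cuts the invariant chain, by -0.92 without overlap (limma, adjusted p = 0.655). In the rescue cells 7 of the 17 were called lower than in shTWIST1, against 1.77% of all genes, again with the shTWIST1 arrays shared.

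**Figure D4:**
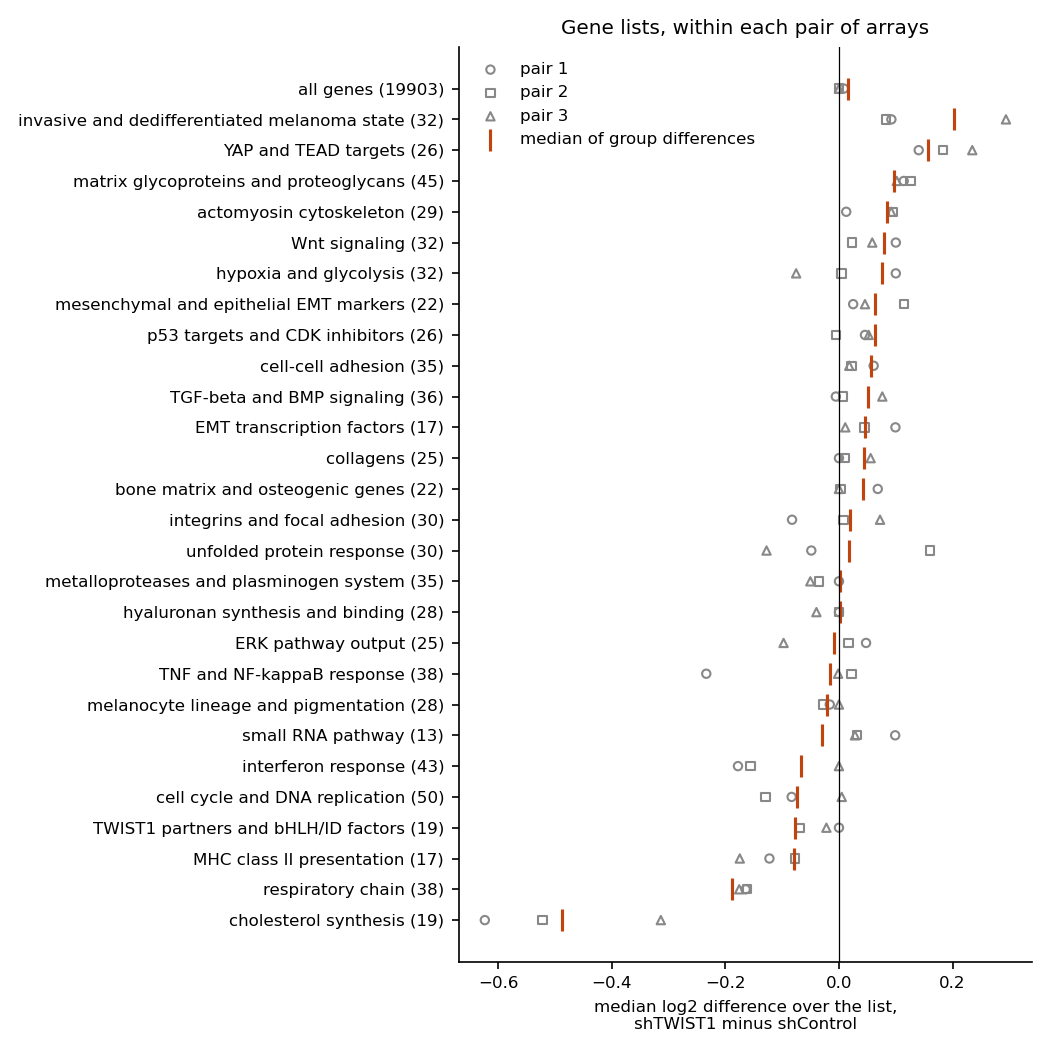
Median log2 difference between shTWIST1 and shControl over the measured genes of 27 gene lists and of all genes, with the number of genes in brackets; red bars are the medians of the group differences and open symbols the medians within each pair of arrays. Cholesterol synthesis (-0.49) and the respiratory chain (-0.19) lie lowest with all 3 pairs below 0, and the invasive state (0.20) and the YAP and TEAD targets (0.16) highest with all 3 pairs above 0.

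The lowest list medians were those of cholesterol synthesis and the respiratory chain. Cells make cholesterol from acetyl-CoA through the mevalonate pathway, whose genes are switched on together by SREBP2 when sterols are scarce. Of 19 such genes measured, 15 (78.9%, against 15.1% of all genes) were lower in all 3 pairs and 0 higher in all 3 pairs, none was called, and the median was -0.49, with -0.62, -0.52 and -0.31 in the pairs. HMGCS1, which makes HMG-CoA, was at 9.18, 10.22 and 8.48 and then at 7.50, 9.08 and 7.17, a difference of -1.38 (limma, adjusted p = 0.773, and 0.165 with the block). Replicate 2 was the highest of both groups and the groups overlapped. SQLE, squalene epoxidase, and DHCR7, which makes cholesterol in its last step, were also highest in replicate 2 of both groups and differed by -0.80 and -0.74, and DHCR7 had an adjusted p of 0.0694 with the block (limma). NSDHL was the only member without overlap, with a difference of -0.75 (limma, adjusted p = 0.546). IDI1 and MSMO1 differed by -0.71 and -0.87. HMGCS1, SQLE, DHCR7, IDI1 and MSMO1 were named after their values were seen. The median difference of the list between the rescue cells and shTWIST1 was 0.13, in a comparison that shares the shTWIST1 arrays.

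The respiratory chain list, of subunits of the mitochondrial complexes that carry electrons and make ATP, had 38 genes measured, none called, and a median of -0.19, with -0.16, -0.16 and -0.18 in the pairs. In 16 of 38 (42.1%, against 6.13% of all genes) the knockdown arrays lay below all controls, and in 0 above. SDHD, a subunit of complex II, was at 5.38, 5.43 and 4.81 and then at 4.19, 4.80 and 4.55, a difference of -0.70 (limma, adjusted p = 0.663). COX7A2, COX6C and COX8A, subunits of the same enzyme that COX16 helps to assemble, differed by -0.61, -0.53 and -0.43, and CYC1, cytochrome c1, by -0.44. COX8A and CYC1 were named after their values were seen. The median difference of the list between the rescue cells and shTWIST1 was 0.17, in a comparison that shares the shTWIST1 arrays.

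Bright genes leaned lower in these arrays as a whole. Among the 1767 genes with a mean level from 8 to 10, 16.2% were lower without overlap and 33.0% lower in all 3 pairs, and their median was -0.06. Among the 8209 genes under a level of 4 only 1.79% were lower without overlap and 6.87% higher. The median level was 8.90 in the respiratory chain list and 7.64 in the cholesterol list. The 66 cytosolic ribosomal protein genes, a family added after the values were seen and with a median level of 10.19, had a median difference of -0.11, with 16 (24.2%) lower without overlap. The part of signal level in the differences of these lists was not tested.

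**Figure D5:**
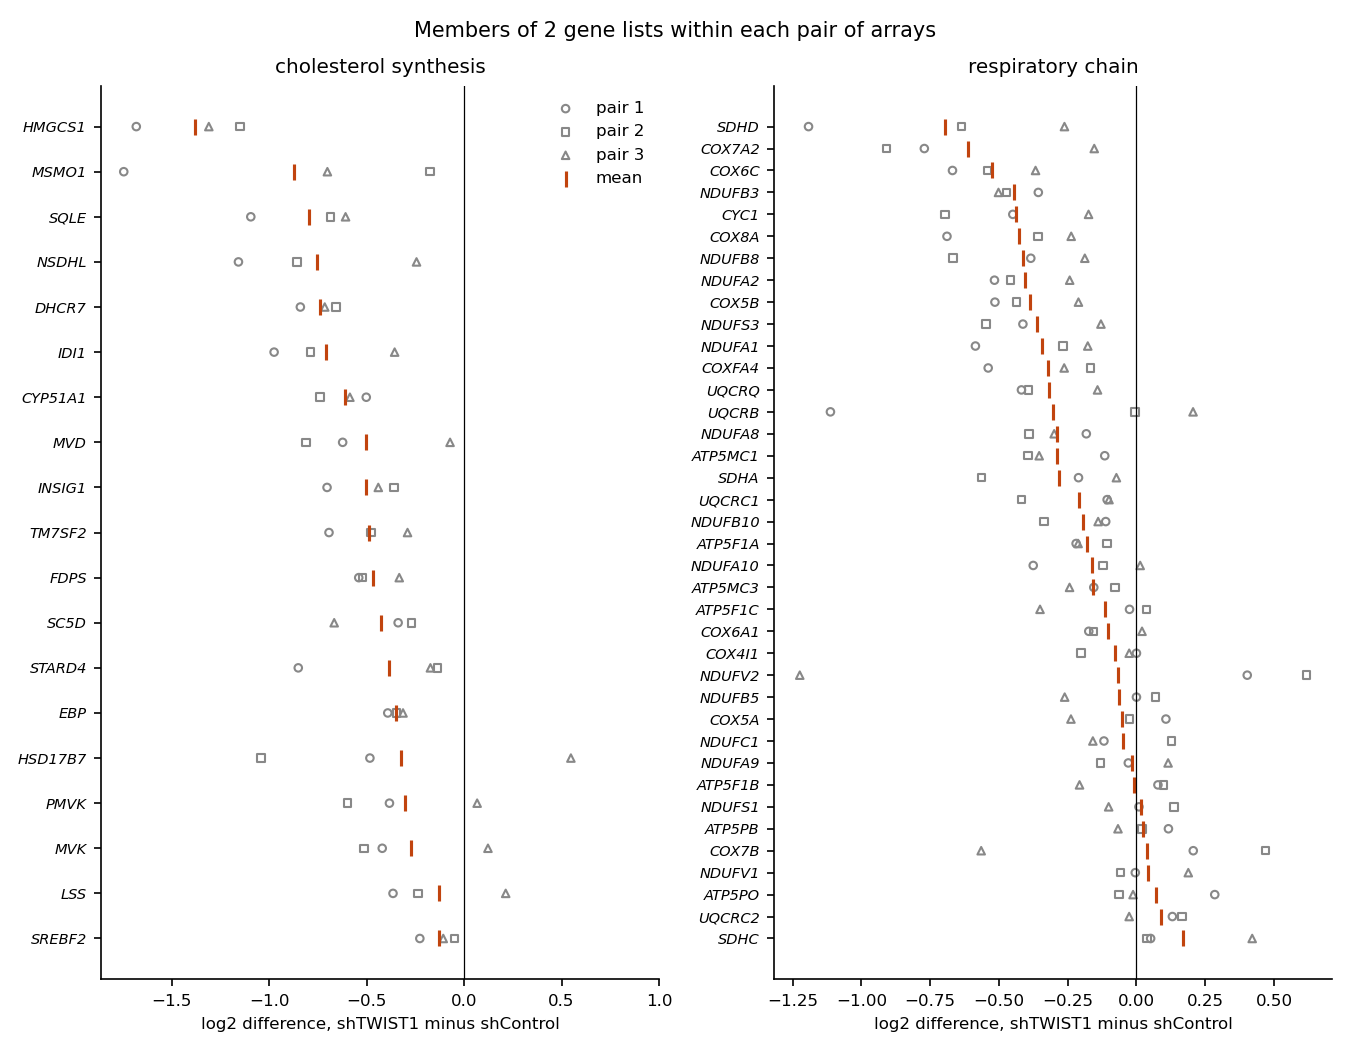
Log2 difference between shTWIST1 and shControl of each measured gene for cholesterol synthesis (19 genes) and the respiratory chain (38 genes); red bars are the group differences and open symbols the differences within each pair of arrays. In 15 of the 19 cholesterol genes and 20 of the 38 respiratory chain genes all 3 pairs lie below 0.

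COX16 and ATP6V0B were each set beside their relatives. ATP6V0B was the only called gene of 21 V-ATPase subunit genes, a family added after the values were seen, whose median was 0.05. ATP6V0E1 differed by -0.19 and ATP6V1B2 by 0.22, both without overlap and named after their values were seen.

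Among genes of the melanocyte lineage, S100A1 and S100B were lower without overlap, and APOE and TRPM1 were higher, by 0.30 and 0.10. The shares were 7.14% lower and 7.14% higher, near the 6.13% and 5.66% of all genes. S100B, a marker of melanoma, was at 10.85, 10.31 and 10.34 and then at 10.03, 9.77 and 9.86, a difference of -0.61 (limma, adjusted p = 0.549). SOX10, the lineage transcription factor, differed by -0.26 and was lower in all 3 pairs, and TFAP2A differed by 0.42. The list's median was -0.02. The genes of ERK output, which mutant BRAF drives, had a median of -0.01, with MYC and CCND1 higher by 0.36 and 0.24 and IER3 lower, as given above.

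For the cell cycle and DNA replication, 33 of 50 genes were below 0, as were 8850 of all 19903 genes, with a median of -0.07. In this list 5 of the 50 genes were lower without overlap, against 6.13% of all genes. Of the 4841 genes with a mean level from 6 to 8, where the list's median level of 7.94 lay, 10.8% were lower without overlap. GINS2, a part of the replicative helicase, differed by -0.96 (limma, adjusted p = 0.749) and CDK1 by -0.26. The unfolded protein response (median 0.02), hypoxia and glycolysis (0.08), p53 targets (0.06) and the small RNA pathway (-0.03) showed no call. ATF6, a sensor of the unfolded protein response, differed by -0.40 (limma, adjusted p = 0.293), and VEGFA, the angiogenic growth factor, by 0.47 (limma, adjusted p = 0.785), both without overlap.

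In the lists of markers of other cell types, CD68, a lysosomal protein of macrophages, was at 7.58, 7.34 and 7.40 and then at 8.20, 7.88 and 8.11, a difference of 0.62 (limma, adjusted p = 0.425), while PTPRC, which all leukocytes carry, was at 2.10 on average. Of the fibroblast markers, PDGFRA differed by -0.55 and COL3A1 by -0.61, both without overlap, and COL1A1 by 0.15. The mean level over the fibroblast markers ranged from 4.59 to 4.81 in shControl and from 4.39 to 4.67 in shTWIST1, and over the leukocyte markers from 3.56 to 3.60 and from 3.73 to 3.81.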

How the data were processed

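The authors deposited log2 expression values made with RMA (no version in the submitters' processing notes), 1 per probe set, for 9 arrays. RMA corrects background, equalizes the arrays' distributions and summarizes probes. The array's name and chip definition are not given in the sources used here. Of 20673 probe sets, 19935 had 1 gene symbol in the platform annotation and 738 had none, and 19913 matched RefSeq (GRCh38.p14) by gene ID. Where 2 probe sets shared a gene the brighter was kept, which left 19934 genes.

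The contrast shTWIST1 minus shControl was fitted with limma 3.58.1 in R 4.3.3 over all 9 arrays in 3 groups, without a block. Benjamini-Hochberg adjustment ran over the 19934 genes, with a threshold of 0.05. The 31 Y chromosome genes were in the fit and the adjustment and were dropped from every count. Lists are described without a test, and 40 of their entries were not analysed here. Standard errors, intervals and p-values rest on 3 arrays per group. The labels name no separate cultures, so p-values measure the spread between these arrays, which may be technical. Arrays have no read depth, and their number limits the precision.

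The labels number the replicates 1 to 3. Deviations from the group mean correlated between same-numbered shControl and shTWIST1 arrays at 0.322, 0.508 and 0.288, so the numbers were taken as pairs. Between different numbers the values were -0.345 to 0.0956. They are not separate evidence, because deviations cancel out within a group. Same-numbered rescue arrays correlated with shControl at only 0.0327, 0.216 and 0.106, and with shTWIST1 at 0.143, 0.296 and 0.304. The rescue array of replicate 3 correlated with shControl replicate 1 at 0.177. Blocked p-values are given where they change a call.

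Genes were named by a rule. It took TWIST1, the CADM family, MMP1 and 3 genes cited as repressed by TWIST1; up to 15 called genes per direction; up to 10 per direction called only with the block; up to 10 per direction not called, without overlap and at or above the 30th percentile of the mean; and, from every list, at most 3 in either direction without overlap and above that level. Other named genes were chosen after their values were seen. The comparison, the 27 gene lists and the 5 marker lists were chosen with earlier results of these data known. The fits were tested on simulated data. Alternatives were quantile normalization, median centring, a filter on dim genes, a trended robust prior, array weights, the block, only the 6 arrays, no Y genes, every probe set, other thresholds, the methods' t-test with unequal variance, and leaving out each array. Other steps used pandas 2.3.3, numpy 2.4.6, scipy 1.17.1 and matplotlib 3.10.9 under Python 3.11.15.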

Additional observations from a re-analysis of the deposited data

How the results depend on the processing

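The count of 6 called genes (1 higher, 5 lower) became 17 with array weights (16 lower), 11 at an adjusted p of 0.1 (10 lower), 3 with the Y chromosome genes left out before the fit (2 lower), 3 in a fit of the 6 arrays with the replicate block (2 lower), and 4 without that block (3 lower). With a minimum log2 difference of 1 the lower genes were 3. The methods' t-test gave 794 genes at an unadjusted p of 0.05 (309 higher, 485 lower) and 0 after Benjamini-Hochberg (0 higher, 0 lower). The replicate block over the 9 arrays kept the count at 6, with 4 genes shared. With each array dropped in turn the count was 3 to 7, with 1 higher and 2 to 6 lower; the count was 3 without shControl replicate 1, shControl replicate 2, shTWIST1 replicate 2, shTWIST1 replicate 3 or shTWIST1 + TWIST1 replicate 3, and in each of these the genes were SPP1, TNFAIP6 and STX10. SPP1 and TNFAIP6 passed in 19 of 20 alternatives, all but the methods' t-test after adjustment, STX10 in 18, ATP6V0B in 8, and COX16 and UHMK1 in 7 each. Array weights also called IL1A and S100A1 (limma, adjusted p = 0.0373 and 0.0476), whose adjusted p without Y chromosome genes was 0.197 and 0.152. TWIST1 stayed uncalled in every alternative, with limma adjusted p from 0.132 upward and differences from -0.90 to -0.71.

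Reversed signs were seen only in genes close to 0. CADM1 became -0.00453 without shControl replicate 2 and -0.0269 without shTWIST1 replicate 1 (range over all arrays left out, up to 0.183). CADM3 became 0.00897 with quantile normalization, 0.137 without shControl replicate 3 and 0.0231 without shTWIST1 replicate 3 (lowest -0.160). CADM4 became -0.0666 without shControl replicate 2, -0.0947 without shTWIST1 replicate 1 and -0.0217 without shTWIST1 replicate 3 (highest 0.285). CDH1 became -0.00854 with quantile normalization and -0.00343 without shControl replicate 2 (highest 0.0420). The causes were not tested. Of the other values of named genes, 2671 kept direction and side of the threshold, 42 lost a call and 15 gained one. With 3 arrays per group the median standard error of a difference was 0.12. The smallest difference that passed was that of STX10, -0.75, and differences as large as -2.41 (IL1A) did not pass.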
